A study of Mus musculus with 8 samples.

Results

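The genes described here encode the chains of collagen, and they were taken as every row of the deposited gene count table whose symbol has the form Col, a type number, the letter a and a chain number. The table held 44 such genes among 24391 gene symbols, and 43 of them were among the 15980 genes with enough counts to be tested. By type, 11 were fibrillar chains, 6 were basement membrane (type IV) chains, 3 formed networks, 9 belonged to the FACIT group (fibril-associated collagens with interrupted triple helices), 6 were beaded filament (type VI) chains, 2 were multiplexins, 1 formed anchoring fibrils, 4 were transmembrane collagens and 2 belonged to none of these.

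Collagens are built from chains that wind around each other in a triple helix, which requires glycine at every turn of a repeating triplet. In the artery wall, types I and III form the load-bearing fibrils, type V sits inside those fibrils and helps set their width, type IV forms the sheet under endothelium and around each smooth muscle cell, and type VI lies between cells and matrix. In atherosclerotic plaques, collagen made mainly by smooth muscle cells and fibroblasts is the principal structural component of the fibrous cap.

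RNA was sequenced from atherosclerotic lesions of C57BL/6 mice that had eaten Western diet for 18 weeks. The lesions came from the vessel labelled BCA, the usual abbreviation for the brachiocephalic artery. In the IL1_AB group, 4 mice had been injected with an antibody against interleukin-1β, a cytokine secreted mainly by activated macrophages. In the IgG_Control group, 4 mice had received IgG, and all mice of both groups were wild type on a smooth muscle cell (SMC) lineage tracing background. The Cre driver of that line, any further allele, the age and the antibody dose are not given in the sources used here, and each library came from 1 animal. The animals are called antibody animals and IgG animals below, with the numbers their titles carry.

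Libraries held 20137336 to 27100415 counts assigned to genes in antibody animals and 21902802 to 29453014 in IgG animals. Alignments at several places took 40.4%, 36.8%, 43.04% and 35.2% of all alignments in antibody animals 1 to 4, against 37.3%, 48.04%, 39.5% and 38.1% in IgG animals 1 to 4, so that IgG animal 2 stood apart. Summed levels of 5 smooth muscle markers, in CPM (counts scaled to library size), ranged from 1122 to 3528 over antibody animals and from 1691 to 2511 over IgG animals, and those of 5 macrophage markers ranged from 3924 to 5796 CPM over antibody animals and from 3339 to 9069 CPM over IgG animals. Most of each macrophage sum was the single gene Lyz2, at 3169 to 4979 CPM in antibody animals and 2673 to 7955 CPM in IgG animals. Endothelial markers summed to 1216 to 1487 CPM in antibody animals and 1274 to 1507 CPM in IgG animals. Smooth muscle cells, macrophages and endothelial cells were thus present in every library. The labels also name epithelial cells, whose 4 markers summed to 8.095 to 12.97 CPM in antibody animals and 10.1 to 28.6 CPM in IgG animals, with the defining marker Epcam at 0 in at least 1 library. Tissue other than artery was visible as well. Sums of 4 adipocyte markers were 2605 to 5085 CPM in antibody animals and 2858 to 3647 CPM in IgG animals, so fat was present in every library. Those of 3 brown fat markers were 1075 to 4003 CPM in antibody animals, highest in antibody animal 3, and 1158 to 1719 CPM in IgG animals. Heart muscle markers, 4 genes, summed to 146 CPM in IgG animal 2. They summed to 3.41 to 7.07 CPM in the other IgG animals and 3.72 to 8.74 CPM in antibody animals. Skeletal muscle markers, 5 genes, were also highest in IgG animal 2, at 60.1 CPM. They summed to 6.06 to 14.6 CPM in the other IgG animals and 2.80 to 28.5 CPM in antibody animals. In such whole-tissue RNA, fewer cells of a type and less RNA per cell cannot be told apart.

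Below are the 250 bases before the annotated start of Col3a1, Col1a2, Col10a1 and Col28a1. The first pair are the most abundant fibrillar chain genes found in the promoter table. The other pair had the smallest unadjusted p-values of the collagen genes in the edgeR test. Sequences are from RefSeq, and 35 of the 44 genes matched an entry, Col1a1 not among them. Capitals mark the CCAAT box (CCAAT), the TATA box (TATAAA) and the GC box core (GGGCGG), each searched as spelled on both strands, and none of the matches overlap.
Col3a1 (GRCm38.p6, chr1:45311288-45311537, plus strand): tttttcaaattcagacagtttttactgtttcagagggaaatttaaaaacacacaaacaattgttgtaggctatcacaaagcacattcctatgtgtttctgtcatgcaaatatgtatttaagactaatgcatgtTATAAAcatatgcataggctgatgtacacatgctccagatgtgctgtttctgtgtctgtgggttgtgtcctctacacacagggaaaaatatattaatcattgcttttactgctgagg
Col1a2 (GRCm38.p6, chr6:4505368-4505617, plus strand): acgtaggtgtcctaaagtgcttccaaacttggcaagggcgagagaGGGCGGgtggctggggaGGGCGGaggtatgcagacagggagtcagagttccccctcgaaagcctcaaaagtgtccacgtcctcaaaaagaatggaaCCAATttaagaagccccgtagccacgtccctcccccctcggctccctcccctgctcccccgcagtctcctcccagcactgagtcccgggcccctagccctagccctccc
Col10a1 (GRCm38.p6, chr10:34389731-34389980, plus strand): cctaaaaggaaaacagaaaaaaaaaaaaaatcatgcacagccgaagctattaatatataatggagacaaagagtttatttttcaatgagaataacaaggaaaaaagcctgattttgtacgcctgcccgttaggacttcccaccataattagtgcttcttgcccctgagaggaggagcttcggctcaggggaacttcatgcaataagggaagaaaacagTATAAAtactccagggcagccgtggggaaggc
Col28a1 (GRCm38.p6, chr6:8192618-8192867, minus strand): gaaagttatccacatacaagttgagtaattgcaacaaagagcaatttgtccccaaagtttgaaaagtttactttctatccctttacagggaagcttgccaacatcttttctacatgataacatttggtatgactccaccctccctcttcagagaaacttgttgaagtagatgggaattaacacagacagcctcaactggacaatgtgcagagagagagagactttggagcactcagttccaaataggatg
The Col3a1 and Col10a1 windows each held 1 TATA box match, the Col1a2 window held 1 CCAAT box match and 2 GC box matches, and the Col28a1 window held none of the 3 motifs. Over 32851 windows of the same length from all genes, 33.8% held the CCAAT box, 12.4% the TATA box and 32.7% the GC box core. Among the 38 windows of collagen genes, 13 held the CCAAT box, 5 the TATA box and 22 the GC box core. A match of letters is a description of the window and not a measured binding site.

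The triple helix is written directly in the coding sequence, as a glycine codon (GGN) at the head of each triplet of codons, and codons for glycine and for proline, the other frequent residue, are rich in G and C. The first 24 codons of the longest uninterrupted run are shown for both chains of 2 pairs, with the glycine codon that heads each triplet in capitals and other codons, including some further glycine codons, in lower case, from GENCODE transcripts of GRCm38.
Col3a1: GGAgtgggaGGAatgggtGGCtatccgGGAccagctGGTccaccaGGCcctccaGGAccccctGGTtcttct
Col1a1: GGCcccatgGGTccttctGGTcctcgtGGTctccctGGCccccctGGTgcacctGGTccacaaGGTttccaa
Col5a2: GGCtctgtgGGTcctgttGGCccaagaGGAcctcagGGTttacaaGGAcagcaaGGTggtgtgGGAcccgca
Col5a1: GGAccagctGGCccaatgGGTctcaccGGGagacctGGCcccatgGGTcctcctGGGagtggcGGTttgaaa
Col3a1 had a run of 344 triplets, Col1a1 a run of 338, Col5a2 a run of 339 and Col5a1 a run of 338. G and C made up 60.9% of the Col3a1 run and 65.2% of the Col1a1 run. In the type V pair they made up 59.9% of the Col5a2 run and 65.4% of the Col5a1 run. Over whole transcripts the shares were 52.5% for Col3a1 and 58.9% for Col1a1, and 49.6% for Col5a2 and 58.0% for Col5a1, so each pair holds a chain poorer and a chain richer in G and C.

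Collagen transcripts were abundant in every lesion and no collagen gene passed the test between antibody and IgG animals. Collagen genes took 1.37%, 1.43%, 1.004% and 1.34% of all assigned counts in antibody animals 1 to 4, against 1.001%, 1.93%, 1.65% and 1.67% in IgG animals 1 to 4. The means were 1.29% ± 0.192 in antibody animals and 1.56% ± 0.395 in IgG animals (SD, n = 4 each). IgG animal 1 and antibody animal 3 were lowest, IgG animal 2 was highest, and the groups overlapped. Scaled for transcript length (RPKM, counts scaled to exon length and library size), the fibrillar chains made up 66.8% of all collagen signal on average, basement membrane chains 12.4%, beaded filament chains 8.39%, multiplexins 5.49%, FACIT chains 4.17% and network chains 2.29%. Transmembrane collagens made up 0.198%. In the length-scaled means over all 8 animals, Col3a1 came first at 661 RPKM, then Col1a2 at 413, Col1a1 at 379, Col4a1 at 151, Col5a2 at 127 and Col4a2 at 99.3 RPKM. The order of Col1a2 and Col1a1 differed between animals, as their ratio shows further down.

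**Figure D1:**
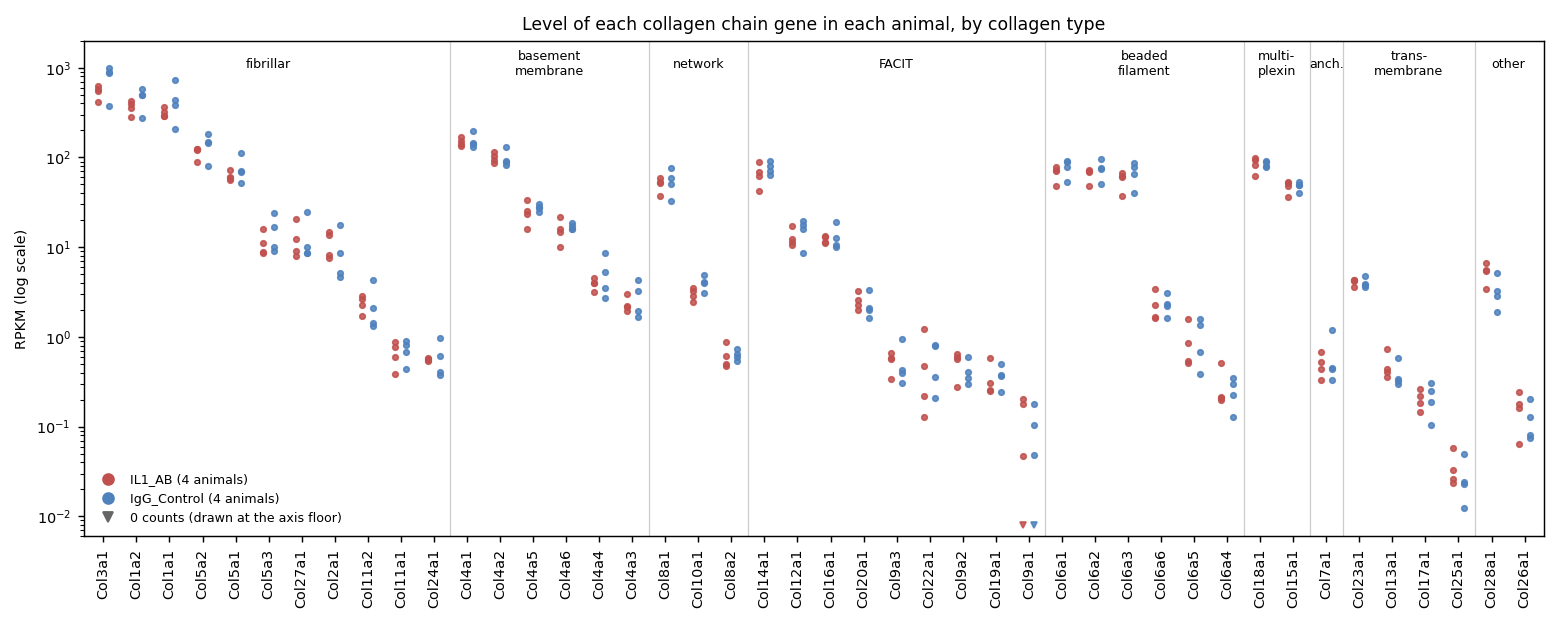
Length-scaled level (RPKM, log axis) of collagen genes in each of the 8 animals, with antibody animals (red) left of IgG animals (blue) and genes grouped by collagen type. Mean levels of tested genes run from 0.0951 RPKM for Col9a1 to 661 RPKM for Col3a1, and the points of both groups overlap for every gene.

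In edgeR's quasi-likelihood test with Benjamini-Hochberg adjustment over 15980 genes, 0 of 43 collagen genes had an adjusted p under 0.05, beside 0% of all genes. The adjusted p of every tested collagen gene was 0.9997. DESeq2 also called 0 collagen genes by adjusted p (beside 0.0501% of all genes), as did limma-voom (beside 0.0125%). At an unadjusted p under 0.05 there were 2 of 43, beside 3.19% of all genes, so the collagen share was near the background. They were Col10a1, with a fold change below 0 (1 of 43, beside 2.06% of all genes), and Col28a1, above 0 (1 of 43, beside 1.13%). This count of 2 ran from 0 to 6 when each animal in turn was left out. No collagen gene had groups that did not overlap (0 of 43, beside 1.96% of all genes). The fitted log2 fold change (antibody over IgG) was below 0 for 31 of 43 collagen genes (72.1%), beside 52.3% of all genes, with a median of -0.10 over collagen genes against -0.0096 over all genes. Intervals were wide: a 95% interval reached 0.65 log2 units to either side of the estimate for the median collagen gene, against 0.40 for the median gene overall.

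**Figure D2:**
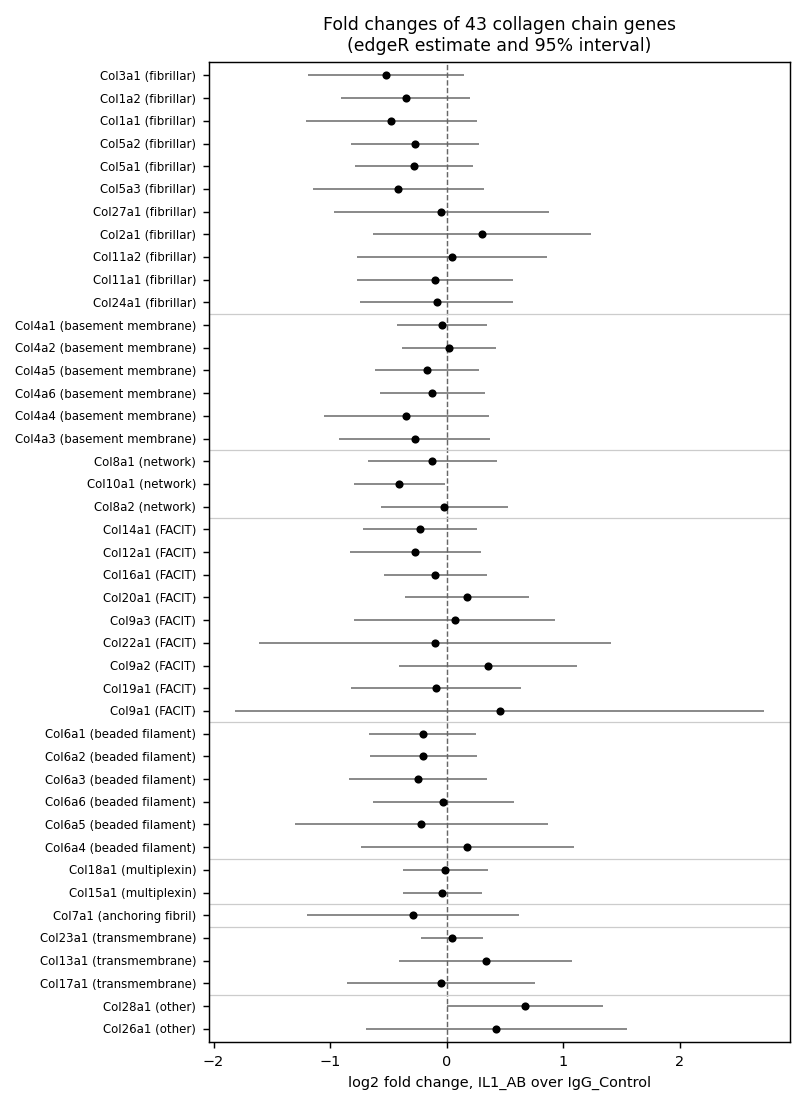
Log2 fold change, antibody over IgG, with its 95% interval from the edgeR fit for the 43 collagen genes tested, grouped by type and with a line at 0. Points to the left are lower in antibody animals: 31 lie left of 0, and the intervals of Col10a1 and Col28a1 are the only ones that do not extend past 0 on both sides.

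The fibrillar chains, which carry most of the collagen signal, had fold changes below 0 in 9 of 11 genes, with a median log2 fold change of -0.27 and none past the test. Col3a1, the only chain of type III collagen (chr1:45368383-45406551, + strand in mm9), had 3031, 3262, 2308 and 3488 CPM in antibody animals 1 to 4, against 2096, 4806, 5493 and 4944 CPM in IgG animals 1 to 4. All 4 antibody animals lay below IgG animals 2, 3 and 4, and all 4 lay above IgG animal 1. Its means were 3022 ± 512 CPM in antibody animals and 4335 ± 1522 CPM in IgG animals (SD, n = 4 each), which gave a log2 fold change of -0.52 ± 0.30 (± SE), with a 95% interval of -1.19 to 0.15. Col1a1, which supplies most chains of a type I molecule (chr11:94797584-94813170, + strand), had 1709.6, 1517, 1372 and 1363 CPM in antibody animals 1 to 4, against 972, 3441, 1822 and 2052 CPM in IgG animals 1 to 4. The same order held, with IgG animal 1 lowest of all 8 and IgG animal 2 highest. Means were 1491 ± 162 CPM in antibody animals and 2072 ± 1024 CPM in IgG animals, with a log2 fold change of -0.47 ± 0.33. Col1a2, the partner chain of type I (chr6:4455697-4491543, + strand), had 1829, 2176, 1450.0 and 2005 CPM in antibody animals 1 to 4, against 1419, 2989, 2565 and 2554 CPM in IgG animals 1 to 4. Antibody animals again lay between IgG animal 1 and the other IgG animals, and the log2 fold change was -0.35 ± 0.25 (-0.91 to 0.20).

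For all 3 of these chains the SD of the IgG group exceeded the difference of the means. When each animal in turn was left out, the log2 fold change of Col3a1 lay between -0.74 (without IgG animal 1) and -0.39 (without IgG animal 3). That of Col1a2 lay between -0.53 (without IgG animal 1) and -0.23 (without IgG animal 2). Col1a1 moved most, between -0.71 without IgG animal 1 and -0.12 without IgG animal 2. Types I and III together made up 53.9%, 56.0%, 54.1% and 56.4% of collagen RPKM in antibody animals 1 to 4, against 50.4%, 62.8%, 62.0% and 62.5% in IgG animals 1 to 4. The 4 antibody shares were close to each other, and the IgG shares split into 1 lower and 3 higher. Without IgG animal 1, 6 of 43 collagen genes had an unadjusted p under 0.05 in edgeR (Col3a1, Col5a2, Col1a1, Col1a2 and Col12a1 below 0, Col28a1 above 0), beside 9.5% of all genes in that test, and 0 had an adjusted p under 0.05 (beside 0.00626%). IgG animal 1 was also the animal with the most epithelial marker RNA, 28.6 CPM, and thymocyte marker RNA, 63.3 CPM over 4 markers, against 50.1 CPM in the highest antibody animal. The part of that tissue in the collagen values was not tested.

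Fibrillar RPKM summed to 1438 ± 170.2 RPKM in antibody animals and 1938 ± 632 RPKM in IgG animals. By animal the sums were 1501, 1548, 1185 and 1519 RPKM in antibody animals 1 to 4, against 1031, 2498, 2149.9 and 2073 RPKM in IgG animals 1 to 4. Col5a3, a minor type V chain named for its place among the smaller p-values, had 97.5, 51.8, 68.6 and 53.9 CPM in antibody animals 1 to 4, against 146, 101, 60.9 and 54.6 CPM in IgG animals 1 to 4. Its pattern ran the other way round within the IgG group, with IgG animal 1 highest, and its log2 fold change was -0.42 ± 0.33. Col5a2, the type V chain that lies next to Col3a1 on chromosome 1, tail to tail and 24624 bases away in mm9, had 821, 801, 585 and 828 CPM in antibody animals 1 to 4, against 527, 949, 1205 and 989 CPM in IgG animals 1 to 4. As for Col3a1, antibody animals lay between IgG animal 1 and the other IgG animals, and its log2 fold change was -0.27 ± 0.25. Its partner Col5a1 had 607, 513, 473 and 493 CPM in antibody animals 1 to 4, against 434, 939.8, 573 and 593 CPM in IgG animals 1 to 4. IgG animal 1 was again lowest and IgG animal 2 highest, with a log2 fold change of -0.28 ± 0.23. The remaining fibrillar genes, Col2a1, Col11a1, Col11a2, Col24a1 and Col27a1, had log2 fold changes between -0.10 for Col11a1 and 0.30 for Col2a1. Col2a1, the cartilage fibril chain, was singled out after its values were seen and had 42.5, 69.8, 75.8 and 39.1 CPM in antibody animals 1 to 4, against 26.3, 90.2, 24.1 and 44.2 CPM in IgG animals 1 to 4. IgG animal 2 was highest and IgG animal 3 lowest, and the log2 fold change was 0.30 ± 0.42. Chondrocyte markers other than collagen summed to 26.3 to 49.98 CPM in antibody animals and 26.6 to 57.98 CPM in IgG animals. Most of each sum was Acan, at 16.6 to 32.2 CPM in antibody animals and 16.1 to 44.3 CPM in IgG animals. Sox9 added 8.23 to 13.95 CPM in antibody animals and 7.73 to 11.9 CPM in IgG animals. Hapln1 and Lect1 were at 2.10 CPM or less, Matn1 was at 0 in at least 1 library, and Matn1 and Matn3 were not tested. Of the 4 tested markers, 1 had a fold change below 0, so the sums describe Acan and Sox9 more than chondrocyte content. The part of chondrocytes in the Col2a1 values was not tested.

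Basement membrane chains were nearly level between the groups in sum: 296 ± 22.7 RPKM in antibody animals and 304 ± 57.6 RPKM in IgG animals (SD, n = 4 each). Of the 6 chains, 5 had fold changes below 0 and 1 above 0. Col4a1 and Col4a2, which assemble together in the common type IV molecule, lie head to head on chromosome 8 with their mm9 models 2 bases apart. Col4a1 had 1120.4, 878, 1006 and 942 CPM in antibody animals 1 to 4, against 857, 1300.0, 971 and 930.0 CPM in IgG animals 1 to 4. Col4a2 had 744, 556, 664 and 607 CPM in antibody animals 1 to 4, against 533, 845, 582 and 576 CPM in IgG animals 1 to 4. IgG animal 2 was highest and IgG animal 1 lowest for both genes, with antibody animals spread between, and the log2 fold changes were -0.04 ± 0.17 for Col4a1 and 0.02 ± 0.18 for Col4a2. Col4a5, a chain known from kidney and smooth muscle basement membranes, had 152, 218, 104 and 165 CPM in antibody animals 1 to 4, against 161, 196, 183 and 179 CPM in IgG animals 1 to 4, with a log2 fold change of -0.17 ± 0.20. Antibody animals held both the highest and the lowest value of Col4a5. The genes Col4a3, Col4a4 and Col4a6 were less abundant, with log2 fold changes of -0.28, -0.35 and -0.12. Col4a3 and Col4a4 also lie head to head, 71 bases apart on chromosome 1, and Col4a5 and Col4a6 1342 bases apart on chromosome X. The file header shows no strand option, so reads of such neighbours near their shared start are told apart by exon position alone.

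All 3 network-forming chains had fold changes below 0, and their summed RPKM was 53.8 ± 9.82 RPKM in antibody animals and 59.3 ± 17.7 RPKM in IgG animals. Col8a1, a vascular chain of the short-chain type VIII collagen, had 299, 275, 188 and 264 CPM in antibody animals 1 to 4, against 167, 259, 387 and 305 CPM in IgG animals 1 to 4. IgG animal 1 was lowest and IgG animal 3 highest, and the log2 fold change was -0.12 ± 0.25 (-0.68 to 0.43). Its partner Col8a2 had 2.05, 3.79, 2.19 and 2.67 CPM in antibody animals 1 to 4, against 3.22, 2.81, 2.31 and 2.56 CPM in IgG animals 1 to 4, with a log2 fold change of -0.02 ± 0.24 and the groups interleaved. Col10a1, the hypertrophic cartilage chain (chr10:34109787-34116891, + strand), had 10.3, 10.97, 7.74 and 8.86 CPM in antibody animals 1 to 4, against 12.8, 15.2, 12.6 and 9.62 CPM in IgG animals 1 to 4. Antibody animals 1 and 2 lay above IgG animal 4, and the other IgG animals lay above all antibody animals. The means were 9.46 ± 1.44 CPM in antibody animals and 12.5 ± 2.29 CPM in IgG animals, and edgeR gave a log2 fold change of -0.41 ± 0.17 (-0.79 to -0.02) with an unadjusted p of 0.0425 and an adjusted p of 0.9997. The 3 osteoblast markers summed to 3.40 to 7.46 CPM in antibody animals and 6.60 to 9.31 CPM in IgG animals. Most of each sum was the single gene Ibsp, at 2.995 to 6.45 CPM in antibody animals and 5.81 to 8.72 CPM in IgG animals. Sp7 was under 1 CPM in every library, and Bglap was at 0 in at least 1 library and was not tested. Of the 2 tested markers, 1 had a fold change below 0, so the sums describe Ibsp more than osteoblast content. The part of osteoblasts in the Col10a1 values was not tested.

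FACIT collagens, which decorate the surface of fibrils, had fold changes below 0 in 5 of 9 genes, and their RPKM summed to 94.96 ± 20.4 RPKM in antibody animals and 109 ± 17.2 RPKM in IgG animals. Col14a1, found on fibrils of vessel wall and tendon, had 397, 569, 276 and 442 CPM in antibody animals 1 to 4, against 410.0, 462, 519 and 587 CPM in IgG animals 1 to 4. Antibody animals held the lowest and the next to highest value, and the log2 fold change was -0.23 ± 0.22. Col12a1, its close relative, had 134, 146, 123 and 199.8 CPM in antibody animals 1 to 4, against 102, 188, 207 and 231 CPM in IgG animals 1 to 4, with a log2 fold change of -0.27 ± 0.25 and IgG animal 1 again lowest. Col16a1, a minor component of fibrils and microfibrils, had 69.02, 67.3, 59.2 and 58.4 CPM in antibody animals 1 to 4, against 51.9, 99.6, 55.2 and 65.6 CPM in IgG animals 1 to 4. Here IgG animals 1 and 2 were the lowest and the highest, and the log2 fold change was -0.10 ± 0.20. The other 6 genes ranged from -0.10 for Col22a1 to 0.45 for Col9a1. The least abundant tested chain, Col9a1, had 0 counts in antibody animal 4 and IgG animal 1, and its SE of 1.01 exceeded its log2 fold change.

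Type VI chains form beaded filaments, and 5 of 6 had fold changes below 0, with summed RPKM of 193 ± 38.1 RPKM in antibody animals and 224 ± 51.6 RPKM in IgG animals. Col6a1 had 281, 288, 193 and 309.6 CPM in antibody animals 1 to 4, against 210.2, 353, 360.0 and 315 CPM in IgG animals 1 to 4. Col6a2 had 258, 262, 179 and 268 CPM in antibody animals 1 to 4, against 189.7, 356, 287 and 280.4 CPM in IgG animals 1 to 4. Col6a3, the long chain of the common type VI molecule, had 663, 673, 407 and 736 CPM in antibody animals 1 to 4, against 436, 716, 946 and 844 CPM in IgG animals 1 to 4. For all 3 chains antibody animal 3 and IgG animal 1 were the lowest animals, and the log2 fold changes were -0.21 ± 0.21, -0.20 ± 0.20 and -0.25 ± 0.26 in the order Col6a1, Col6a2, Col6a3. The chains Col6a4, Col6a5 and Col6a6 were rarer, at 0.18, -0.22 and -0.03. Antibody animal 3 also had the lowest sums of fibroblast markers (479 CPM, against 864 CPM in the highest antibody animal, with 634 to 895 CPM in IgG animals) and of smooth muscle markers (1122 CPM), and the highest sum of brown fat markers (4003 CPM). IgG animal 1 had 814 CPM of fibroblast markers, 2511 CPM of smooth muscle markers, the highest such sum among IgG animals, and 1569 CPM of brown fat markers. The part of tissue make-up in the collagen values of these animals was not tested.

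The multiplexins, basement membrane collagens whose ends are cleaved into endostatin-like fragments, were close to level: 131 ± 23.5 RPKM in antibody animals and 133 ± 8.49 RPKM in IgG animals. Col18a1 had 545, 565, 359 and 475 CPM in antibody animals 1 to 4, against 514, 531, 459 and 455 CPM in IgG animals 1 to 4. Col15a1 had 274, 279.9, 194 and 255 CPM in antibody animals 1 to 4, against 213, 287, 263 and 265 CPM in IgG animals 1 to 4. Antibody animal 3 was the lowest of all 8 animals for both genes, and the log2 fold changes were -0.01 ± 0.16 and -0.04 ± 0.15. The 95% intervals ran over -0.38 to 0.35 for Col18a1 and -0.38 to 0.30 for Col15a1, so differences inside these limits remain possible.

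Rarer types were measured at low counts except for Col23a1, which had 467 to 701 counts per library. Col7a1, the anchoring fibril chain of skin, had 4.83, 3.08, 6.17 and 4.09 CPM in antibody animals 1 to 4, against 4.17, 11.02, 4.04 and 3.04 CPM in IgG animals 1 to 4. IgG animal 2 alone stood above the rest, and the log2 fold change was -0.29 ± 0.40. Among transmembrane collagens, Col23a1 had 23.8, 24.6, 20.4 and 24.5 CPM in antibody animals 1 to 4, against 20.5, 26.7, 21.5 and 21.9 CPM in IgG animals 1 to 4. Its highest animal was 1.31 times its lowest, the smallest such spread of any collagen gene, with a log2 fold change of 0.04 ± 0.12 (-0.23 to 0.31). Col13a1 had 2.34, 1.12, 1.4002 and 1.295 CPM in antibody animals 1 to 4, against 1.03, 1.84, 1.08 and 0.945 CPM in IgG animals 1 to 4, with a log2 fold change of 0.33 ± 0.33. Col17a1, a hemidesmosome component of epithelia, had 1.03, 1.23, 1.44 and 0.809 CPM in antibody animals 1 to 4, against 1.37, 1.71, 1.05 and 0.574 CPM in IgG animals 1 to 4, with a log2 fold change of -0.05 ± 0.36. In both genes the groups overlapped. The remaining transmembrane gene, Col25a1, had 2 to 11 counts per library and was not tested.

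Both genes outside these types had fold changes above 0. Col28a1, a von Willebrand factor A domain collagen known from nerve in mice (chr6:7947808-8142617, - strand), had 23.5, 28.2, 22.8 and 14.5 CPM in antibody animals 1 to 4, against 21.9, 12.04, 8.04 and 13.8 CPM in IgG animals 1 to 4. Antibody animals 1 to 3 lay above every IgG animal, and antibody animal 4 lay among them. Means were 22.2 ± 5.67 CPM in antibody animals and 13.96 ± 5.84 CPM in IgG animals, and edgeR gave a log2 fold change of 0.67 ± 0.30 (0.00 to 1.34) with an unadjusted p of 0.0496 and an adjusted p of 0.9997. Schwann cell markers, the glia of peripheral nerve, summed to 166, 201, 224 and 202 CPM in antibody animals 1 to 4, against 207, 275, 98.1 and 172 CPM in IgG animals 1 to 4. IgG animal 3 was lowest in both measures. IgG animal 2 had the highest Schwann sum and the next to lowest Col28a1 level. Antibody animal 1 had the next to lowest Schwann sum and the next to highest Col28a1 level. The part of nerve content in the Col28a1 values was not tested. Col26a1 had under 1 CPM in every animal, 0.439, 0.175, 0.656 and 0.486 CPM in antibody animals 1 to 4, against 0.342, 0.553, 0.216 and 0.202 CPM in IgG animals 1 to 4, with a log2 fold change of 0.43 ± 0.50.

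The libraries differed in the overall level of their collagen genes. IgG animal 2 had the highest value of 21 of the 43 tested collagen genes, and IgG animal 1 the lowest value of 13 and antibody animal 3 of 11. The median deviation of collagen genes from the mean of the other 7 animals (log2 CPM) was 0.02, 0.07, -0.21 and -0.07 in antibody animals 1 to 4, against -0.24, 0.52, -0.13 and -0.01 in IgG animals 1 to 4. Leaving out IgG animal 2 moved the median log2 fold change of collagen genes to 0.03, with 19 of 43 below 0 beside 50.7% of all genes, and the 2 genes then at an unadjusted p under 0.05 in edgeR were Col2a1 and Col11a2, both above 0, beside 4.22% of all genes. Leaving out antibody animal 3 gave a median of -0.06, with 26 of 43 below 0 beside 54% of all genes.

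**Figure D3:**
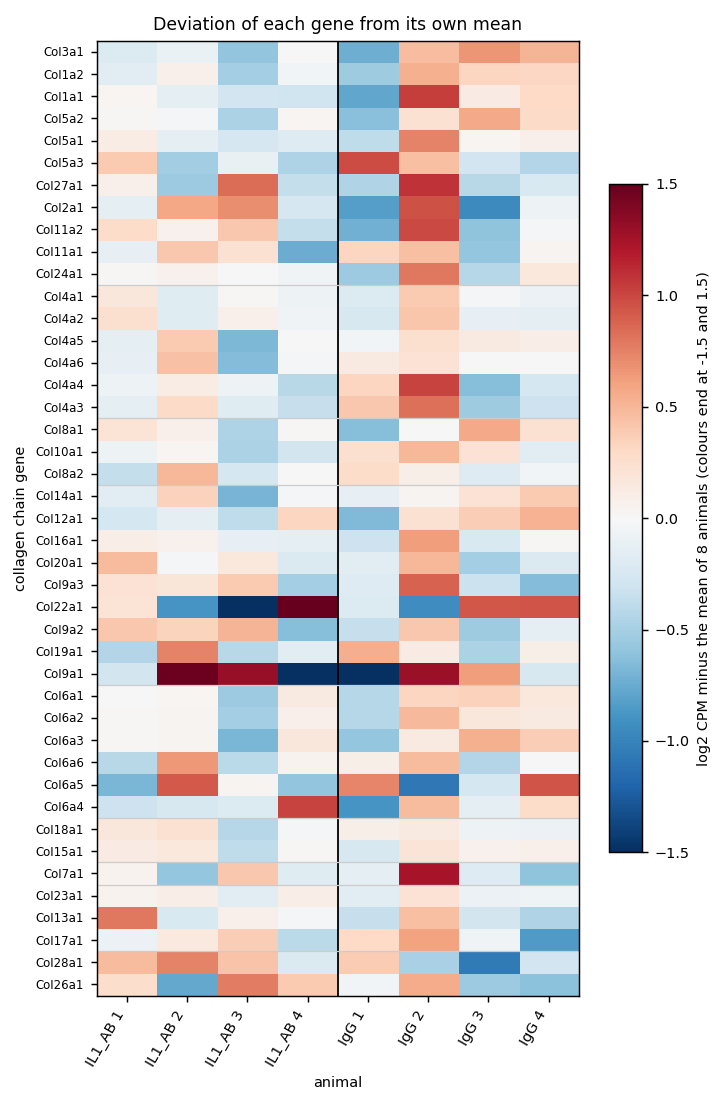
Level of each tested collagen gene (rows, grouped by type) in each animal (columns, antibody animals left of IgG animals) as log2 CPM minus the mean of all 8 animals, red above and blue below that mean. IgG animal 2 is red in most rows, holding the highest value of 21 genes, and IgG animal 1 and antibody animal 3 are blue in the rows of Col1a1, Col1a2, Col3a1, Col6a1, Col6a2 and Col6a3.

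Ratios between chains within 1 library do not depend on how libraries are scaled to each other, and 5 were tested by exact permutation of the group labels (two-sided, 70 assignments of the 8 animals, smallest possible p 0.0286), with Benjamini-Hochberg adjustment over the 5. The Col4a2 to Col4a1 ratio of RPKM, 2 chains of 1 molecule, was 0.683, 0.652, 0.679 and 0.663 in antibody animals 1 to 4, against 0.639, 0.669, 0.617 and 0.637 in IgG animals 1 to 4. It was the least variable ratio, at 0.669 ± 0.0144 in antibody animals and 0.641 ± 0.0217 in IgG animals, and its log2 difference of 0.06 had an exact p of 0.0857 and an adjusted p of 0.429. The ratio of Col6a3 to Col6a1 was 0.864, 0.856, 0.773 and 0.871 in antibody animals 1 to 4, against 0.761, 0.744, 0.964 and 0.983 in IgG animals 1 to 4, with exact p 0.943. Col1a2 to Col1a1, the pair of type I, stood at 0.977, 1.31, 0.965 and 1.34 in antibody animals 1 to 4, against 1.33, 0.794, 1.29 and 1.14 in IgG animals 1 to 4, with exact p 0.886. The values lay under 1 in antibody animals 1 and 3 and in IgG animal 2, and above 1 in the other 5 animals. Col3a1 to Col1a1, type III against type I, stood at 1.497, 1.82, 1.42 and 2.16 in antibody animals 1 to 4, against 1.82, 1.18, 2.55 and 2.03 in IgG animals 1 to 4, with exact p 0.743. The same 3 animals had the lowest values here. For the type V pair, Col5a2 to Col5a1, the ratio was 1.72, 1.98, 1.57 and 2.13 in antibody animals 1 to 4, against 1.54, 1.28, 2.67 and 2.12 in IgG animals 1 to 4, with exact p 0.943, and the adjusted p was 0.943 for these 4 ratios. The spread within each group was larger than the difference of the group means in all 4 of them.

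**Figure D4:**
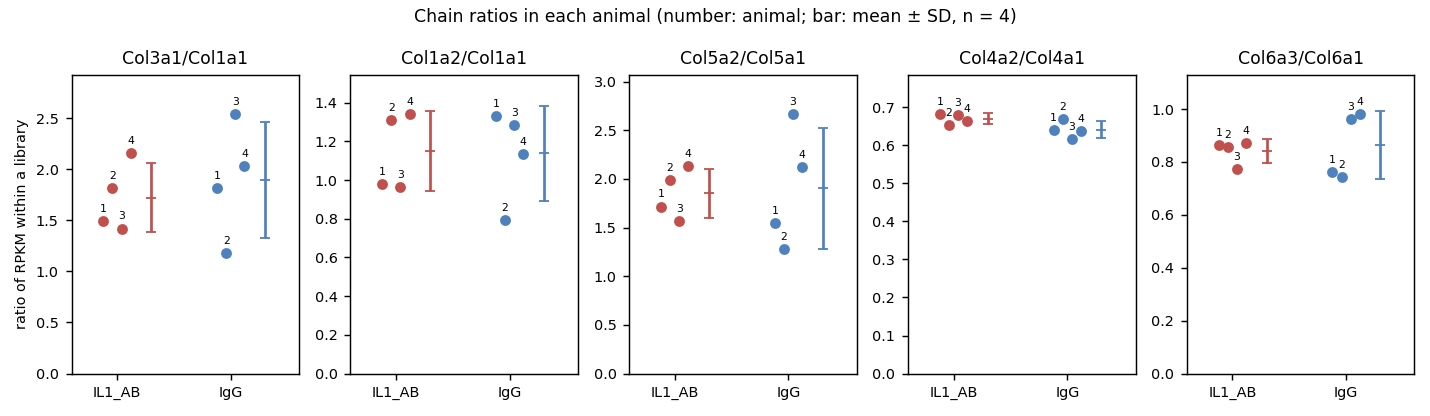
Ratio of length-scaled levels (RPKM) of 2 collagen chains in each animal, for 5 pairs, antibody animals left of IgG animals, with mean ± SD of each group. The Col4a2 to Col4a1 ratio lies within 0.617 and 0.683 in all 8 animals, while Col3a1 to Col1a1 runs from 1.18 in IgG animal 2 to 2.55 in IgG animal 3.

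The libraries also differed in base composition. Over 14431 genes, the Spearman correlation between G and C content and a gene's deviation from the other animals was 0.26, -0.22, 0.14 and -0.18 in antibody animals 1 to 4, against -0.03, 0.42, -0.31 and -0.26 in IgG animals 1 to 4. Over the tested collagen genes it was 0.47, -0.31, 0.40 and -0.16 in antibody animals 1 to 4, against -0.15, 0.39, -0.28 and -0.44 in IgG animals 1 to 4. These are correlations across genes of 1 library, which share its depth and preparation and are not replicates. The 3 animals with positive values, antibody animals 1 and 3 and IgG animal 2, were those with the lowest Col3a1 to Col1a1 and Col1a2 to Col1a1 ratios, and Col1a2 transcripts, at 55.7% G and C, are like Col3a1 poorer in these bases than Col1a1. The same 3 animals had the highest Col4a2 to Col4a1 ratios (0.683, 0.679 and 0.669). Col4a2 transcripts, at 60.6% G and C, are richer in these bases than those of Col4a1, at 57.7%. For the type V and type VI ratios these animals were not the 3 lowest. IgG animal 1, with a correlation near 0 over all genes, was next to lowest for Col5a2 to Col5a1 and for Col6a3 to Col6a1. Transcripts of Col6a3 and Col6a1 hold 54.5% and 56.7% G and C. The 3 libraries with positive values had the 3 highest shares of alignments at several places. With an offset for G and C content in each library, the median collagen log2 fold change was -0.09, 31 of 43 were below 0 beside 52.4% of all genes, and Col10a1 was the 1 collagen gene at an unadjusted p under 0.05, beside 3.72%. The part of base composition in the ratios was not tested.

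**Figure D5:**
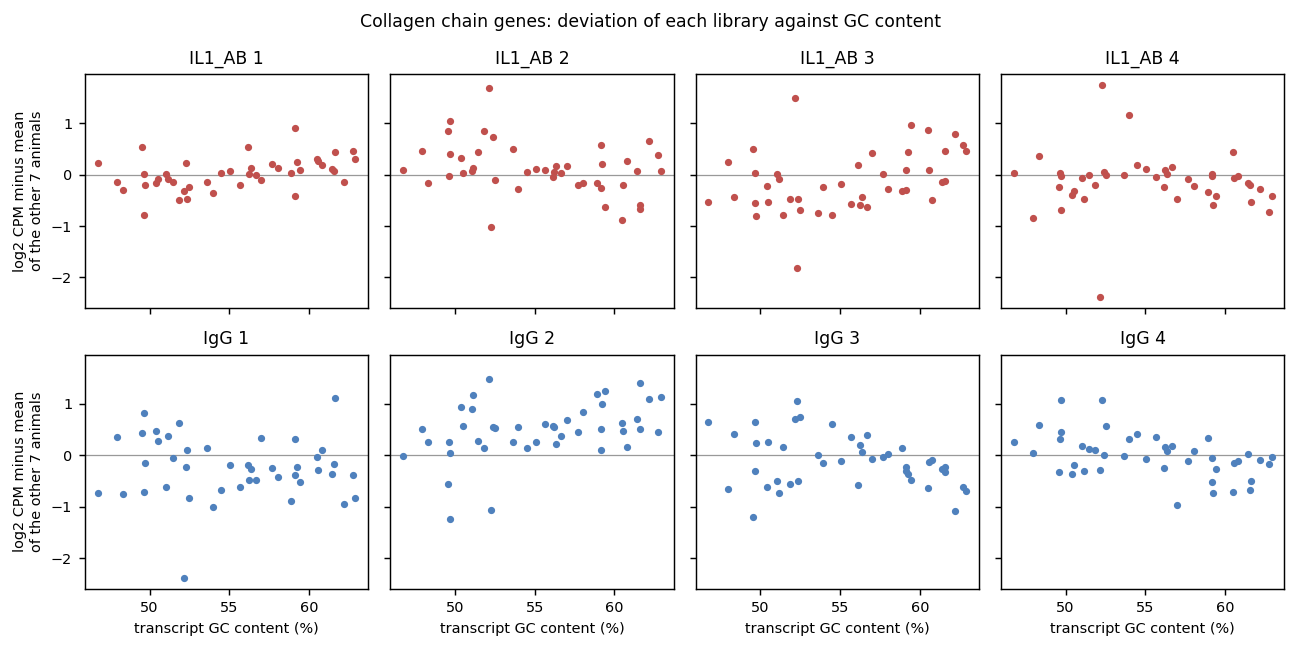
Deviation of collagen genes from the mean of the other 7 animals (log2 CPM) against the G and C content of the transcript (percent), 1 panel per animal, antibody animals before IgG animals. The cloud slopes up in antibody animals 1 and 3 and IgG animal 2 (rho 0.47, 0.40 and 0.39) and down in the other 5 animals.

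Genes that make, cross-link, bind and degrade collagen were described from 5 lists of 64 genes, of which 62 were tested. None had an adjusted p under 0.05 in edgeR, and 2 had an unadjusted p under 0.05 (beside 3.19% of all genes). Both had fold changes below 0 (beside 2.06% of all genes). Of the 62 fold changes, 53 were below 0 (beside 52.3% of all genes), with a median of -0.15 against -0.0096 over all genes. The same 52.3% stands beside the count of each list below, and no list was tested as a set. Of 20 tested genes for folding and export, such as prolyl and lysyl hydroxylases, 18 were below 0, with a median of -0.11. P3h4, a subunit of the lysyl hydroxylase complex of the endoplasmic reticulum, averaged 15.5 ± 3.14 CPM in antibody animals and 18.8 ± 3.797 CPM in IgG animals (log2 fold change -0.28 ± 0.19). P3h1, a prolyl 3-hydroxylase, averaged 25.9 ± 2.698 CPM in antibody animals and 29.3 ± 4.72 CPM in IgG animals (log2 fold change -0.18 ± 0.14). For both, the difference of the means exceeded the SD of the antibody group but not that of the IgG group, and the groups overlapped.

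Of 14 genes for processing and cross-linking, 13 were below 0, with a median of -0.20. Lox, the lysyl oxidase that cross-links collagen and elastin, had 155, 208, 153 and 224 CPM in antibody animals 1 to 4, against 209.6, 199.9, 356 and 276 CPM in IgG animals 1 to 4. The lowest values were in antibody animals 3 and 1 and the highest in IgG animals 3 and 4, the groups overlapped, and edgeR gave a log2 fold change of -0.49 ± 0.21 with an unadjusted p of 0.0446. Pcolce, which enhances removal of the procollagen C-terminal end, averaged 68.6 ± 10.9 CPM in antibody animals and 83.8 ± 7.21 CPM in IgG animals (log2 fold change -0.29 ± 0.13), with an unadjusted p of 0.0516 in edgeR. Among 10 fibril-associated genes 9 were below 0, with a median of -0.14. Lum, a small proteoglycan on fibrils, averaged 651 ± 248 CPM in antibody animals and 958 ± 627 CPM in IgG animals (log2 fold change -0.56 ± 0.46). Thbs2, a matricellular protein that affects fibril assembly, averaged 95.3 ± 24.5 CPM in antibody animals and 111 ± 22.8 CPM in IgG animals (log2 fold change -0.22 ± 0.21).

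Breakdown and uptake genes were below 0 in 9 of 10, with a median of -0.24. Mmp13, the main interstitial collagenase of mice, had 24.1, 20.99, 26.6 and 49.6 CPM in antibody animals 1 to 4, against 62.1, 19.9, 98.8 and 98.7 CPM in IgG animals 1 to 4. IgG animal 2 was the lowest of all 8 and the other IgG animals were the highest, so the groups overlapped through 1 animal. Its log2 fold change in edgeR was -1.21 ± 0.46 with an unadjusted p of 0.0277. Fap, a protease that cleaves denatured collagen, averaged 15.1 ± 2.69 CPM in antibody animals and 20.3 ± 6.44 CPM in IgG animals (log2 fold change -0.43 ± 0.23). Collagen receptors were split, 4 below 0 and 4 above 0. Itga1, which pairs with Itgb1 in a collagen receptor of smooth muscle and other cells, had 146, 142, 145 and 154 CPM in antibody animals 1 to 4, against 123, 139, 118 and 131 CPM in IgG animals 1 to 4. All antibody animals lay above all IgG animals, as did 0.713% of all genes, with a log2 fold change of 0.20 ± 0.10 and an unadjusted p of 0.0648 in edgeR. Lair1, an inhibitory collagen receptor of immune cells, averaged 57.9 ± 9.38 CPM in antibody animals and 64.05 ± 17.3 CPM in IgG animals (log2 fold change -0.14 ± 0.20). Macrophage markers, listed above by their sums, were below 0 in 5 of 5 and fibroblast markers in 6 of 6. Smooth muscle markers were below 0 in 0 of 5, and the share over all genes was 52.3%. Of the tested markers in the other lists, 4 of 5 endothelial, 4 of 4 heart muscle and 3 of 3 epithelial markers were below 0. So were 3 of 5 skeletal muscle, 2 of 3 thymocyte and 1 of 2 osteoblast markers. Chondrocyte, adipocyte and Schwann cell markers were below 0 in 1 of 4 each, and brown fat markers in 0 of 3. The part of cell make-up in the collagen-related lists was not tested.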

How the data were processed

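RNA was sequenced from 8 lesions, 4 per group, each from a separate animal per the series' design text. The authors deposited raw counts of reads per gene symbol, with each gene's exon length in bases. Per the file headers, reads were counted over exons of mm9 gene models with featureCounts 1.4.6-p4, with no strand option shown. A second deposited table counts alignments by status, and alignments at several places are an unassigned class in it. STAR 3.0 is named in the submitters' processing notes.

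Genes were kept by filterByExpr in edgeR 4.0.16 (R 4.3.3; minimum count 10, minimum total 15), scaled by the trimmed mean of M values (TMM), and tested with the robust quasi-likelihood F-test. Benjamini-Hochberg adjustment ran over all 15980 genes kept. The SE is the fold change divided by the square root of F. CPM are TMM-scaled, and RPKM are CPM per kilobase of deposited exon length. Alternatives used DESeq2 1.42.0, limma 3.58.1 (voom with quality weights), other scalings and filters, a replicate block, and omission of each animal. The omission of IgG animal 2 with antibody animal 3, and an offset for G and C content (14431 genes with a value), were chosen after seeing the data. The code was tested on simulated counts.

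Values in every animal are given for the 3 most abundant members of each type and the 6 members with the smallest unadjusted p. Col5a1 and Col5a2, which enter a ratio, and Col2a1 were added outside this rule. Of each pathway list the 2 genes with the smallest p are named, most of them by group means. The members and lists were chosen with earlier results of these data known. Counts of 20137336 to 29453014 per library leave rare chains imprecise: Col25a1 had 2 to 11 counts per library. The sequences come from GRCm38 and share no coordinates with the mm9 values.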

Additional observations from a re-analysis of the deposited data

Results flagged for a closer look

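In 10 of 76 groups of 4 animals checked, the highest or lowest animal lay far from the other 3. The criterion was Dixon's at the 95% level, which chance meets in about 1 of 20 independent groups. The 76 groups are measures of the same animals, some sharing genes, and are not independent. The count of 10 can therefore not be read against that chance share.

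Antibody animal 3 was low in 3 of them. Its fibrillar RPKM summed to 1185, with 1501 to 1548 in the other antibody animals. Its Col6a2 level was 179 CPM, with 258 to 268 CPM in the others, and its Col6a3 to Col6a1 ratio was 0.773, with 0.856 to 0.871 in the others. Antibody animal 1 had the highest basement membrane sum of its group, 329 RPKM, with 282 to 288 RPKM in the others.

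IgG animal 2 was high in 6. It had 845 CPM of Col4a2, with 533 to 582 CPM in the other IgG animals. Col7a1 stood at 11.02 CPM, with 3.04 to 4.17 CPM in the others, and the anchoring fibril type, which holds only this gene, at 1.20 RPKM, with 0.330 to 0.454 RPKM. Col13a1 stood at 1.84 CPM, with 0.945 to 1.08 CPM in the others, and the transmembrane type at 5.62 RPKM, with 4.21 to 4.36 RPKM. The multiplexins summed to 146 RPKM, with 128 to 129 RPKM in the others. The same library had the highest share of alignments at several places, 48.0%, and the highest correlation with G and C content over all genes, 0.42. It also had the highest sums of heart muscle markers, 146 CPM, and of skeletal muscle markers, 60.1 CPM. The part of each of these in the values above was not tested.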

How the results depend on the processing

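Across 17 alternatives of the gene-wise test, 0 collagen genes had an adjusted p under 0.05. The number at an unadjusted p under 0.05, 2 in the edgeR test, was 0 with total-count scaling (beside 3.36% of all genes), 1 with a mean count of at least 50 (2.96%), 7 with limma-voom (17.3%), 0 without both IgG animal 2 and antibody animal 3 (2.51%), 1 with the offset for G and C content (3.72%), and 0 to 6 when 1 animal was left out, beside 1.93% to 9.5% of all genes. That was 0 without antibody animal 1, antibody animal 3 or IgG animal 3, 1 without antibody animal 2, antibody animal 4 or IgG animal 4, 2 without IgG animal 2 and 6 without IgG animal 1. The median log2 fold change ran from -0.16 to 0.03 when 1 animal was left out and was 0.07 without both named animals, with 13 of 41 genes below 0 beside 48.2% of all genes. Col3a1, Col1a2, Col1a1, Col10a1, Col14a1, Col12a1, Col6a3, Col13a1, Col28a1 and Col26a1 kept their direction under every alternative in which they were tested, but their values moved. Over those alternatives they ran from -0.74 to -0.34 for Col3a1, -0.53 to -0.10 for Col1a2, -0.71 to -0.064 for Col1a1, -0.51 to -0.092 for Col10a1, -0.44 to -0.073 for Col14a1, -0.53 to -0.14 for Col12a1, -0.42 to -0.086 for Col6a3, 0.056 to 0.65 for Col13a1, 0.48 to 0.98 for Col28a1 and 0.16 to 0.80 for Col26a1. Col10a1 was nearest 0 with limma-voom, at an unadjusted p of 0.546. Other directions reversed, and the cause was not tested. This happened with total-count scaling for Col8a2 (0.0073) and Col18a1 (0.020), and with limma-voom for Col5a3 (0.20), Col4a1 (0.090), Col18a1 (0.099), Col7a1 (0.37) and Col17a1 (0.66). Without both named animals, values were 0.11 for Col4a1, 0.049 for Col4a5, 0.095 for Col8a2, 0.19 for Col16a1, 0.0085 for Col6a1, 0.074 for Col6a2, 0.17 for Col18a1, 0.14 for Col15a1, 0.11 for Col7a1 and 0.054 for Col17a1. Leaving out 1 animal gave -0.12 to 0.10 for Col4a1, -0.064 to 0.19 for Col4a2, -0.30 to 0.072 for Col8a1, -0.25 to 0.082 for Col8a2, -0.21 to 0.14 for Col16a1, -0.096 to 0.11 for Col18a1, -0.11 to 0.068 for Col15a1, -0.49 to 0.27 for Col7a1, -0.0020 to 0.13 for Col23a1 and -0.28 to 0.18 for Col17a1. For the log2 differences of chain ratios it gave -0.31 to 0.056 for Col3a1 to Col1a1, -0.14 to 0.11 for Col1a2 to Col1a1, -0.16 to 0.19 for Col5a2 to Col5a1, -0.094 to 0.040 for Col6a3 to Col6a1 and 0.045 to 0.085 for Col4a2 to Col4a1. Without both named animals, Col1a2 to Col1a1 stood at -0.060 and Col5a2 to Col5a1 at -0.088, and a linear difference of raw count ratios gave -0.041 for the type V pair.

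Animals with the same number did not vary together (correlations -0.344 to 0.293, with 1 of 4 pairs over 0.1, and 2 of 8 animals closest to their own number), so the numbers were not used as pairs. With a replicate block, 2 collagen genes had an unadjusted p under 0.05 (beside 2.26% of all genes), 0 an adjusted one, the median was -0.08, and Col17a1 stood at 0.0011.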
